A study of Mus musculus with 11 samples.

Results

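The genes described here are Crip2, Pdlim5, Fhl2 and Tes, 4 of the 7114 genes that could be named on 2-colour cDNA arrays of 11 mouse RNA samples. All encode proteins with LIM domains. They were chosen by symbol, each measured by 1 probe, because their values lay far apart between the cultured lines and the Melan A-labelled array. That choice used the same values that are given below, so levels and differences are descriptions, with no test.

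A LIM domain is a pair of zinc fingers, held by cysteine and histidine residues, that binds other proteins rather than DNA. In the cytoplasm, LIM proteins sit on actin filaments, focal adhesions and the Z-discs of striated muscle. Some of them also enter the nucleus and act with transcription factors. Actin and adhesion genes vary strongly between cultured cells and tissues, and several LIM proteins are abundant in heart or smooth muscle.

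Each array carried 1 sample labelled with Cy3 and a mouse embryo reference labelled with Cy5, and no label had a second array. The series title names RAS isoforms in melanocytes. The labels were D6_MEL, NRAS_MEL, HRAS_MEL and Melan A (read as melanocytes, Melan A being an established mouse melanocyte line), 3T3 and VA_MEF (read as fibroblasts), VA_475 (cell type not stated), and the organs Heart, Kidney, Liver and Lung. In their descriptions D6_MEL and NRAS_MEL share a code, to which Nras is added for NRAS_MEL, and HRAS_MEL has a code of its own. Strain, age, alleles, promoters of any introduced gene, clone numbers and any pooling of organs are not stated in the labels. With 1 array per label, replicate error could not be measured. The probe spread serves as a yardstick instead. It is the root mean square SD between probes of a gene in the difference of a pair of arrays. All genes with several probes enter it, and a difference below it is called within the spread. Such probes share the same arrays, so the spread leaves out variation from repeated RNA, labelling or hybridization. A difference past it can still lie within replicate error.

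Values are log2 ratios of own RNA over reference, with each array centred on its median. The deposited signs were turned, because the array farthest out for each organ marker list lay below the rest as deposited, by -4.68 for the heart list, -8.36 for liver, -5.52 for kidney and -7.40 for lung. That direction is likely but not stated. If it were the other way, every sign below would turn, while sizes and the closeness of arrays would stay. The 11 arrays gave values for 15170 to 15210 probes each, and the lowest correlation across genes between any 2 arrays was 0.108.

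Marker genes went against several labels. The heart list, of which 3 of 23 genes were measured (Nppb, Fabp3 and Hrc), peaked in the Melan A-labelled array, with a median of 3.26, with -1.67 to -0.44 in the other 10 and -1.46 in the Heart-labelled array. The Heart-labelled array was closest to D6_MEL, with a correlation across genes of 0.922. The liver list (3 of 13 measured) was highest in the Lung-labelled array, at 2.54, and the lung list (2 of 11) in the Liver-labelled array, at 5.35. The kidney list (3 of 13) was highest under its own label, at 5.60. The melanocyte list (6 of 19) was lowest in the Melan A-labelled array, at -1.20, and did not include Mitf, Tyr, Dct or Pmel, so it says little about pigment cells. Its highest median, 0.39, was in the VA_MEF-labelled array, where the fibroblast list (12 of 18) was lowest, at -2.25. Arrays are therefore called by their labels, none was moved, and results resting on these are given with the marker values beside them. In mixed tissue, a change in the number of cells of a type and a change in RNA per cell cannot be told apart.

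Crip2 encodes a small cysteine-rich LIM protein known from heart and vascular smooth muscle. Its level was -4.54 in D6_MEL, 0.04 in NRAS_MEL, 0.58 in HRAS_MEL and 3.38 in the Melan A-labelled array. The Heart-labelled array stood at -4.62, VA_475 at -4.37, 3T3 at -3.12 and the VA_MEF-labelled array at -1.34. Kidney was at -1.29, the Lung-labelled array at -0.20 and the Liver-labelled array, which carries the lung markers, at 2.34. Thus 3 arrays (D6_MEL, Heart and VA_475) formed a low end, each within the probe spread of the next. NRAS_MEL and the Lung-labelled array were likewise within the spread of each other, as were Kidney and the VA_MEF-labelled array. The Melan A-labelled array lay above the Liver-labelled array by 1.04, with a spread of 0.71. HRAS_MEL lay above NRAS_MEL by 0.54, only slightly past the spread of 0.48. Over the 11 arrays the range of Crip2 was 8.0, the 22nd widest of 7035 genes with complete values, where the median range was 1.54. Only Fhl2 among the members ranged wider, over 8.11. Without the Melan A-labelled array the range of Crip2 was 6.96 and that of Fhl2 4.09.

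Fhl2 encodes a protein made almost wholly of LIM domains, abundant in heart muscle, which binds integrins and actin-linked proteins and also acts as a transcriptional cofactor. In the Melan A-labelled array its ratio to the reference, 5.50, was the highest of all 7089 genes measured there. That rank depends also on how much of each RNA the reference held, so it is not a rank of abundance. The next array was 3T3, at 1.48, a gap of 4.02 with a probe spread of 0.80. VA_475 stood at 0.79, HRAS_MEL at 0.09, Kidney at -0.37 and NRAS_MEL at -0.72. The Liver-labelled array was at -1.0, the Lung-labelled array at -1.48, D6_MEL at -1.55, the Heart-labelled array at -2.19 and the VA_MEF-labelled array at -2.60. From HRAS_MEL down to D6_MEL each array was within the spread of the next, although HRAS_MEL lay above D6_MEL by 1.64, past the spread of 0.52. The Heart-labelled array lay below D6_MEL by 0.64, past the spread of 0.33, and was within the spread of the VA_MEF-labelled array. The 3T3 array thus held the highest Fhl2 among the 6 lines not labelled Melan A, and the VA_MEF-labelled array the lowest. Both labels were read as fibroblasts. In the VA_MEF-labelled array, however, the fibroblast list was lowest, at -2.25, and the melanocyte list highest, at 0.39.

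Fhl2 is the member whose upstream sequence is shown, since both of its annotated start sites carry the CArG box, the A/T-rich element bound by serum response factor, which drives muscle and cytoskeletal genes. The first start site in RefSeq order is preceded by chr1:43196762-43197011 and the second by chr1:43163962-43164211, both on the minus strand of GRCm38.p6. A promoter of Pdlim5, like Fhl2 and Crip2 highest in the Melan A-labelled array, is given for contrast, at chr3:142395697-142395946 on the minus strand. Each is the 250 bases before a start site, in lower case, with matches to the CArG box and to the MEF2 site, another muscle element, in capitals.
Fhl2, first start site: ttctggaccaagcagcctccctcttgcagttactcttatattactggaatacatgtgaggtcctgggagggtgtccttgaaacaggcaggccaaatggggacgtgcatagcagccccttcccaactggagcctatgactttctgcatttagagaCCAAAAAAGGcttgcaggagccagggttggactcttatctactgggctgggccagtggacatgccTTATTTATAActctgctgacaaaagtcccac
Fhl2, second start site: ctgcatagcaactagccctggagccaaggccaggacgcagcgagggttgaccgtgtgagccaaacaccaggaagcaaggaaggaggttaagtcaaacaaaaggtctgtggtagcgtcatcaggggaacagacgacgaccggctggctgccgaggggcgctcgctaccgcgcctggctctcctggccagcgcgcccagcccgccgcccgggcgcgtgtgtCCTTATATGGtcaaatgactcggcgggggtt
Pdlim5, first start site: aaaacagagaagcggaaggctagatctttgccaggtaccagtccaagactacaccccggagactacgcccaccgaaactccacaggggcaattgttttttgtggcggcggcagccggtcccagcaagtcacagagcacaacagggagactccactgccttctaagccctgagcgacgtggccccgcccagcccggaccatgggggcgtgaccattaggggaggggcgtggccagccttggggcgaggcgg

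The first Fhl2 promoter held 1 CArG box, CCAAAAAAGG, from 96 to 87 bases before the start, and 1 MEF2 match, TTATTTATAA, from 31 to 22 bases before it. The second held 1 CArG box, CCTTATATGG, also from 31 to 22 bases before the start. The MEF2 match of the first overlaps matches to TATAA, the core of the TATA box, on both strands. The CArG box of the second overlaps 1 such match, on the strand opposite to the gene. Searched on both strands, the CArG box occurred in 1.47% and the MEF2 site in 2.92% of 32851 RefSeq promoters of this length, and TATAA in 22.8%. Neither CArG box nor MEF2 site was found in the 5 promoters listed for Crip2, Pdlim5 and Tes. These matches describe letters, not binding, and no binding was measured. The 2 Fhl2 promoters differed in CpG content, with 1 and 21 CpG dinucleotides, and the median over all promoters was 6. The probe does not tell transcripts of the 2 start sites apart.

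Pdlim5 couples a PDZ domain, which holds it to alpha-actinin, with LIM domains that bind protein kinases, and sits at the Z-disc of muscle. Its level was 3.01 in the Melan A-labelled array and 0.65 in D6_MEL. The other 9 arrays lay between -1.65 in NRAS_MEL and -0.19 in the VA_MEF-labelled array. Among them the Lung-labelled array was at -0.34, Kidney at -0.35, the Heart-labelled array at -0.38 and VA_475 at -0.69. HRAS_MEL stood at -0.93, the Liver-labelled array at -0.96 and 3T3 at -1.25. Every neighbouring pair among these 9 was within the probe spread, but pairs farther apart need not be. The VA_MEF-labelled array lay above 3T3 by 1.06, past the spread of 0.50. Only the Melan A-labelled array, by 2.36, and D6_MEL, by 0.84, stood above the next array by more than the spread. Pdlim5 had the narrowest range of the 4 once the Melan A-labelled array was left out, 2.30, against 4.65 with it.

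Tes encodes testin, a focal adhesion protein with a PET domain and LIM domains that binds zyxin and regulators of actin growth, and that has been studied as a tumour suppressor. In the Melan A-labelled array, where the other 3 members were highest, Tes was lowest. NRAS_MEL stood at 2.76, the Heart-labelled array at 2.66 and D6_MEL at 2.58, all within the spread of each other. Below them came 3T3 at 1.35, HRAS_MEL at 1.20, the VA_MEF-labelled array at 1.16 and VA_475 at 0.76, each within the spread of the next. The ends of this series were farther apart, VA_475 minus 3T3 being -0.59, past the spread of 0.41. Kidney was at -0.07 and the Liver-labelled array at -0.10, while the Lung-labelled array stood at -1.24 and the Melan A-labelled array at -1.37. By label the cultured lines and the organs overlapped, since the Heart-labelled array was among the highest and the Melan A-labelled array was the lowest. The step from VA_475 down to Kidney was 0.83, with a spread of 0.76. The range of Tes changed little without the Melan A-labelled array, from 4.13 to 4.0.

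**Figure D1:**
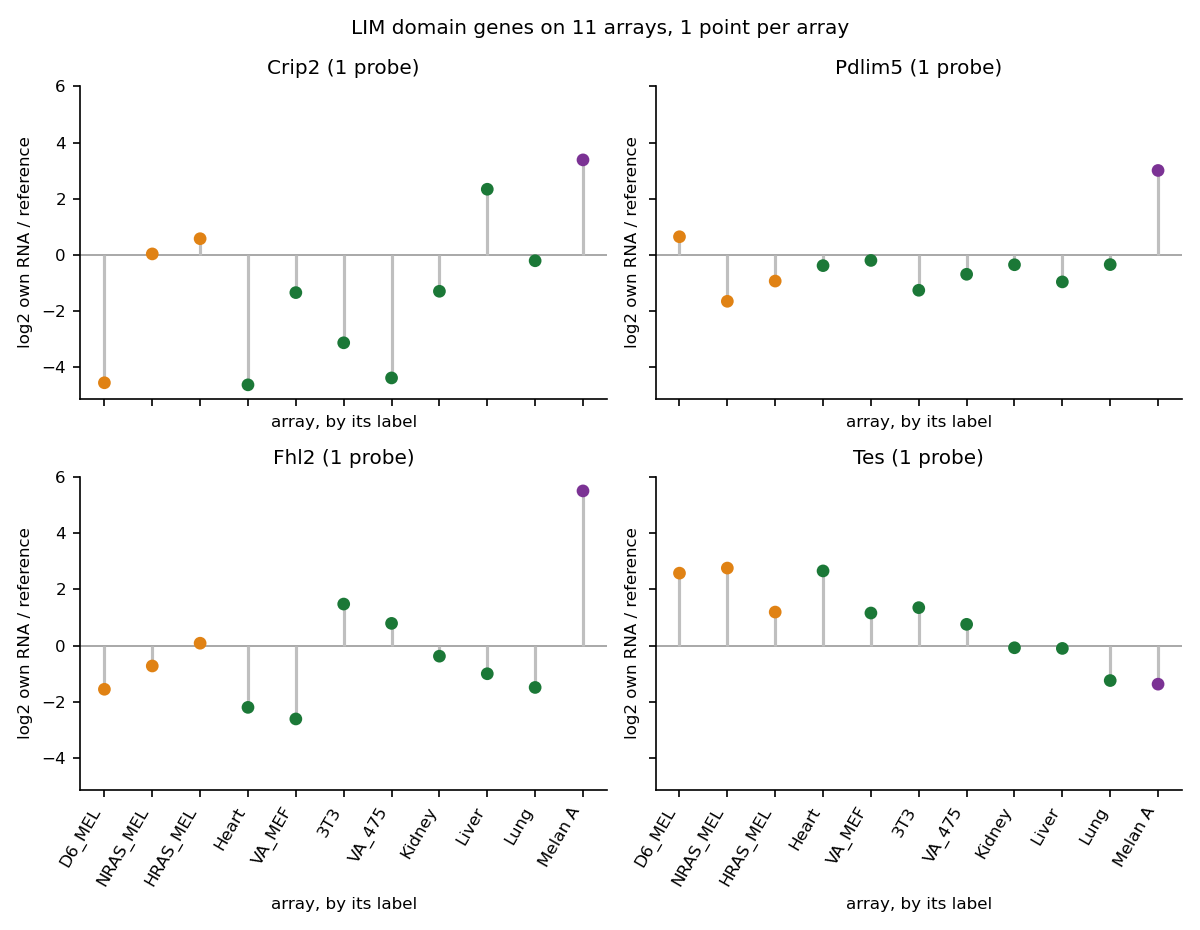
Level of each LIM domain gene (log2 own RNA over reference, y axis) on the 11 arrays, ordered by label on the x axis, with 1 point per array and no error because no label was repeated; the 3 MEL arrays are orange, the Melan A-labelled array purple and the others green. Fhl2 reaches 5.50 and Pdlim5 3.01 in the Melan A-labelled array, Crip2 runs from -4.62 to 3.38, and Tes is highest in NRAS_MEL, Heart and D6_MEL, at 2.58 to 2.76.

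NRAS_MEL was set against D6_MEL, the line that shares its code. With 1 array per label, a RAS effect cannot be told apart from other differences between lines or arrays. The same holds for HRAS_MEL below. Crip2 was higher in NRAS_MEL by 4.58, or 23.9-fold, the largest difference of 7069 genes. Pdlim5 differed by -2.30, or 4.91-fold lower, the 8th lowest of all. Fhl2 differed by 0.83 and Tes by 0.18, under 2-fold, and Tes lay within the spread of 0.54. So 2 of the 4 were at least 2-fold apart, where 6.86% of all genes were. With arrays scaled to equal spread, Fhl2 differed by 1.12, which made 3 of the 4, where 9.29% of all genes were apart, and Tes turned to -0.33.

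HRAS_MEL differed from D6_MEL by at least 2-fold in all 4 genes, where 11.1% of 7078 genes did. Crip2 was higher by 5.12, or 34.9-fold, the 5th highest difference. Fhl2 was higher by 1.64, or 3.11-fold. Pdlim5 differed by -1.58 and Tes by -1.38, or 2.98-fold and 2.61-fold lower in HRAS_MEL. These differences were 2.66 to 9.86 times the spread of 0.52. This comparison shares the D6_MEL array with the previous one, so their likeness for Crip2 and Pdlim5 is no independent observation.

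When the Heart-labelled array took the place of D6_MEL, Crip2 was higher by 4.66 in NRAS_MEL and by 5.20 in HRAS_MEL. Pdlim5 differed by -1.27 in NRAS_MEL and by -0.55 in HRAS_MEL, which is under 2-fold. Fhl2 was higher by 1.47 and 2.28, past 2-fold in both. Tes differed by 0.10 and -1.46. The 2-fold calls on Pdlim5 in HRAS_MEL and on Fhl2 in NRAS_MEL thus depended on which of these arrays was used. Between the arrays labelled Heart and D6_MEL themselves, 2.09% of 7076 genes were 2-fold apart, among them Pdlim5 at -1.03 but not Crip2 at -0.07, Fhl2 at -0.64 or Tes at 0.08.

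Set directly against each other, NRAS_MEL and HRAS_MEL were at least 2-fold apart in Tes alone of the 4, where 9.35% of 7073 genes were. Tes was higher in NRAS_MEL by 1.56, or 2.96-fold, 3.26 times the spread. Crip2 differed by -0.54, Pdlim5 by -0.72 and Fhl2 by -0.81. All of these were under 2-fold, though between 1.13 and 1.69 times the spread of 0.48.

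The Melan A-labelled array was the contrast that chose the genes, so its differences are only described. Against it D6_MEL differed by -7.93 in Crip2, the 2nd lowest of 7074 genes, by -7.05 in Fhl2, the 4th lowest, by -2.36 in Pdlim5 and by 3.95 in Tes, the 10th highest. Of all genes, 27.4% were 2-fold apart in that pair. NRAS_MEL differed by -3.34 in Crip2, -6.23 in Fhl2, -4.65 in Pdlim5 and 4.13 in Tes, where 28.8% of genes were 2-fold apart. HRAS_MEL differed by -2.80, -5.42, -3.93 and 2.56 in the same order, with 26.4% of genes apart. All 4 were past 2-fold in each of these pairs. Quantile normalization brought Pdlim5 in D6_MEL to -1.18 and Crip2 in HRAS_MEL to -1.63, still past 2-fold. The heart list median moved with these values, at 3.26 in the Melan A-labelled array against -1.67 to -0.91 in the 3 MEL arrays, as did the smooth muscle list (3 of 8 measured), at 0.78 against -2.07 to -1.55, and the red blood cell list (3 of 6), at -1.01 against -5.44 to -4.91. The endothelium list (4 of 8), at 0.75 against -1.66 to -1.05, and the macrophage list (2 of 8), at 0.54 against -2.88 to -1.68, moved with them too. Their part in the result was not tested.

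Against the other organ labels the Melan A-labelled array was higher in 3 of the 4 genes. Fhl2 was higher by 5.88 than in Kidney, 6.50 than in the Liver-labelled array and 6.99 than in the Lung-labelled array. Pdlim5 was higher by 3.35, 3.96 and 3.35. Crip2 was higher by 4.67, 1.04 and 3.59, the second of which became 0.15 with arrays scaled to equal spread and turned to -0.0842 with quantile normalization. Tes differed by -1.29, -1.27 and -0.13, so all 4 genes were 2-fold apart against Kidney and the Liver-labelled array and 3 against the Lung-labelled array. The shares of all genes 2-fold apart were 18%, 23.4% and 22.8%.

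**Figure D2:**
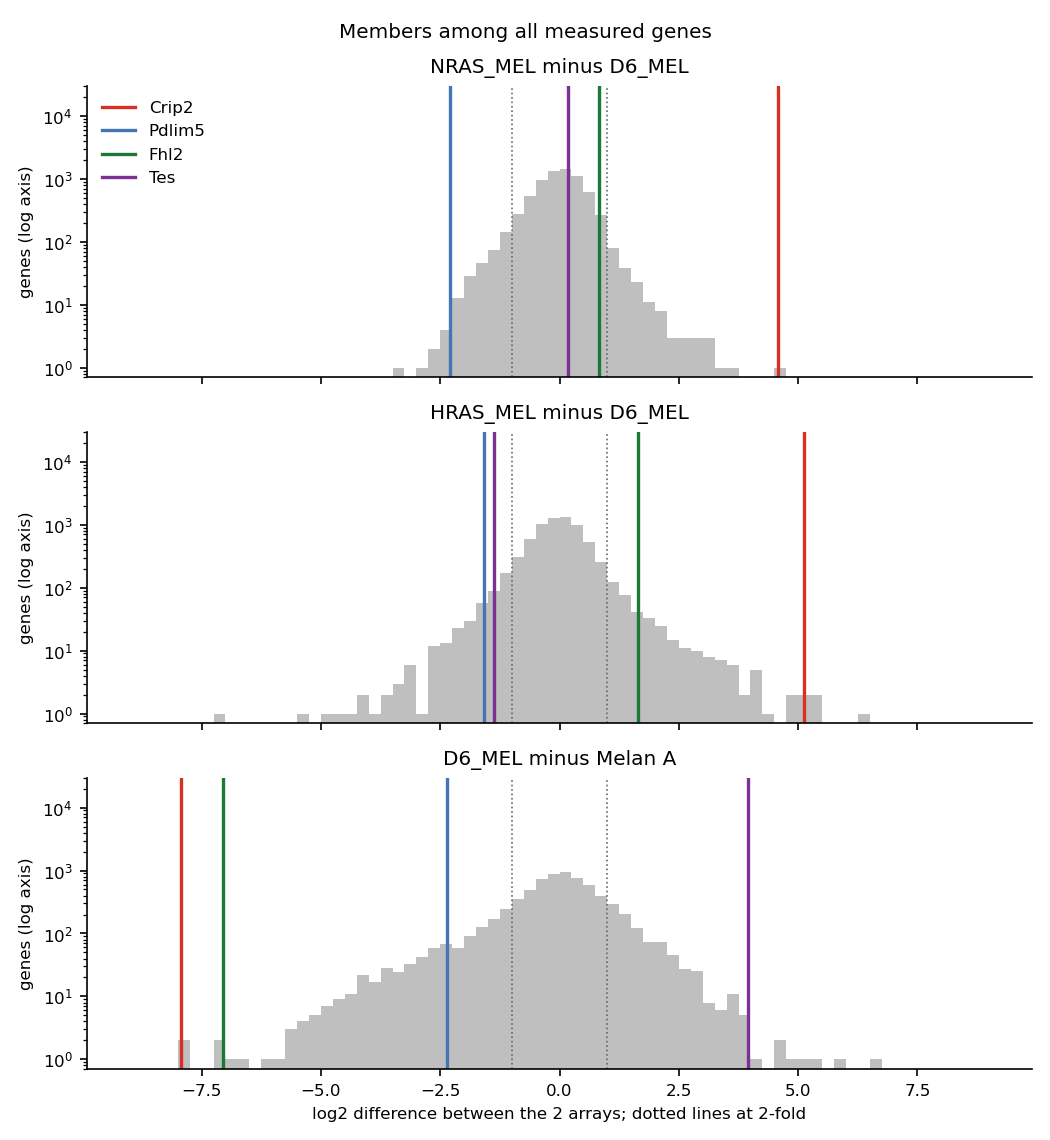
Numbers of genes (y axis, log scale) by log2 difference (x axis) for NRAS_MEL minus D6_MEL, HRAS_MEL minus D6_MEL and D6_MEL minus Melan A, with coloured lines at the 4 LIM domain genes and dotted lines at 2-fold. Crip2 lies at the upper edge of the first 2 distributions, at 4.58 and 5.12, and at the lower edge of the third, at -7.93.

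The VA_MEF-labelled array and VA_475, whose cell type is not stated, were each compared with 3T3. Fhl2 was lower in the VA_MEF-labelled array, with a difference of -4.09, or 17.0-fold, the 22nd lowest of 7088 genes. Crip2 was higher there by 1.78 and Pdlim5 by 1.06, while Tes, at -0.19, was within the spread of 0.50. Of all genes, 13.8% were 2-fold apart. In that array the median of the 6 measured melanocyte genes was 0.39, against -0.82 in 3T3. Rab38 and Mlph stood at 3.40 and 3.06, against -0.93 and -0.71 in 3T3, but Kit, at -1.63 against -1.34, and Ednrb, at -3.48 against -3.10, were not higher. Their part in the Fhl2 difference was not tested. VA_475 differed from 3T3 by at least 2-fold in Crip2 alone, at -1.25, where 7.22% of 7077 genes did. With quantile normalization that value was -0.81 and with arrays scaled to equal spread -0.39, both under 2-fold, and under quantile normalization Fhl2, at -0.69, and Tes, at -0.59, became -1.37 and -1.28.

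The LIM list was then read for the wider family. Of the 72 genes listed, 32 were measured, the 4 above and 28 others (27 LIM domain genes and the LIM-binding cofactor Ldb1). In NRAS_MEL minus D6_MEL, 1 of the 28 was at least 2-fold higher and 2 were lower (2 and 2 with arrays scaled to equal spread), with a median of 0.04, against 0.02 over all genes. Crip1 was higher by 1.56. Lims2, a PINCH adaptor of integrin-linked kinase, differed by -2.03, and Lasp1, an actin-binding LIM protein, by -1.02. In HRAS_MEL minus D6_MEL, 3 were higher and 1 was lower (4 and 3 with quantile normalization), with a median of 0.04. Crip1 at 2.68, Crip3 at 1.61 and Tgfb1i1, a paxillin relative, at 1.44 were higher, and Lims2, at -2.17, was lower. The 3 and 4 genes apart were 10.7% and 14.3% of the list, beside 6.86% and 11.1% of all genes. With quantile normalization the HRAS_MEL count was 7, or 25% of the list, beside 13.7% of all genes.

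Many more LIM genes lay apart between D6_MEL and the Melan A-labelled array, 15 of 28 (53.6%, against 27.4% of all genes), with 6 higher and 9 lower in D6_MEL. Higher in D6_MEL were the LIM kinase Limk1, which phosphorylates cofilin, at 1.87, Lims2 at 1.47, the focal adhesion protein Zyx (zyxin) at 1.22, the muscle LIM relatives Csrp2 at 1.21 and Csrp1 at 1.15, and Lima1 at 1.02. Lower were Ablim1 at -3.27, Lmo7 at -3.26, Crip1 at -2.67, Crip3 at -2.07 and the filamin-binding Fblim1 at -1.75. Lmcd1 at -1.68, Pdlim1 at -1.41, Mical2 at -1.35 and Pdlim7 at -1.13 were lower too. The relatives of the chosen Pdlim5 and Crip2 among these, Pdlim1, Pdlim7, Crip1 and Crip3, were closer in other pairs. In NRAS_MEL minus Melan A they differed by -1.14, -0.56, -1.11 and -1.41, and in HRAS_MEL minus Melan A by -1.33, -0.75, 0.0082 and -0.46. Between each MEL array and the Melan A-labelled array, the focal adhesion gene Zyx went the way of its partner Tes. It went against Tes in HRAS_MEL minus D6_MEL, at 0.62 and Tes at -1.38, and in NRAS_MEL minus HRAS_MEL, at -0.86 and Tes at 1.56. Over the 11 arrays their r was 0.54, and without the arrays labelled Lung and Melan A it was 0.11. The other LIM genes were less than 2-fold apart in D6_MEL minus Melan A. Of the 28, 11 had their lowest level in the VA_MEF-labelled array, where 14.4% of all genes had theirs, and 6 their highest in the Melan A-labelled array, where 16.1% did. Another 6 were highest in the Liver-labelled array, where 10.8% of all genes were.

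**Figure D3:**
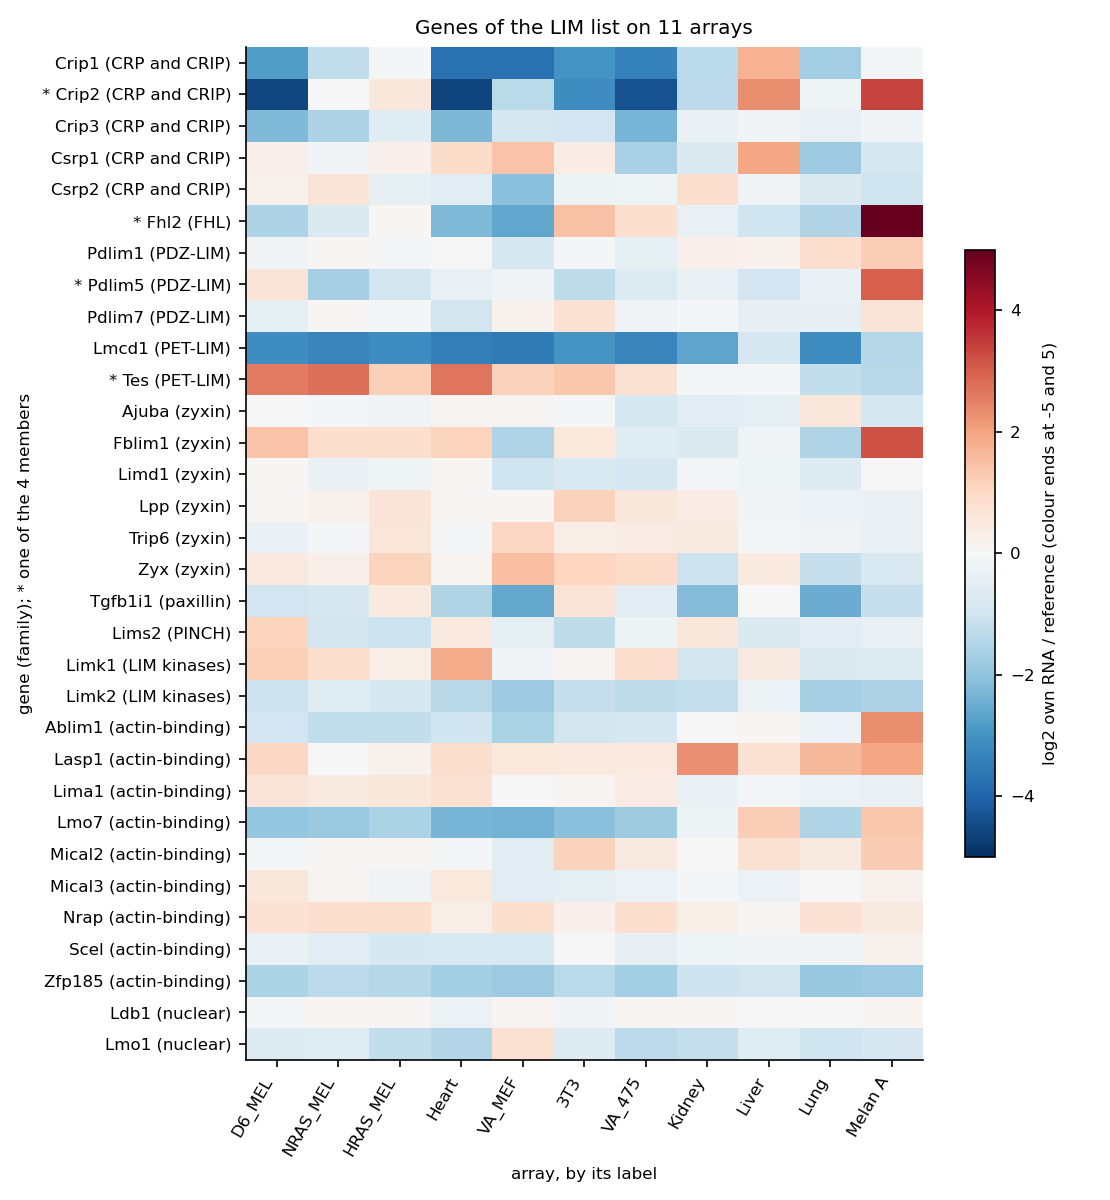
Levels (colour, log2 own RNA over reference, ending at -5 and 5) of the 32 measured genes of the LIM list (rows, by family, the 4 chosen genes starred) on the 11 arrays (columns). Crip1, Crip2 and Crip3 are low in D6_MEL, Heart and VA_475, and Fhl2 and Pdlim5 are highest in the Melan A-labelled array, at 5.50 and 3.01.

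Crip2 and its relatives Crip1 and Crip3 shared a pattern. Crip1 stood at -2.78 in D6_MEL, -1.21 in NRAS_MEL and -0.10 in HRAS_MEL, the same order as Crip2. It was at -3.72 in the Heart-labelled array, -3.38 in VA_475, -2.98 in 3T3 and -3.74 in the VA_MEF-labelled array, where Crip2 was less low. In the Liver-labelled array it reached 1.74. In the Melan A-labelled array, where Crip2 was at its highest, Crip1 stood at only -0.10. Over the 11 arrays the Pearson r of Crip2 was 0.853 with Crip1 and 0.837 with Crip3, with Spearman rho of 0.845 and 0.818. Without the 2 arrays farthest from the Crip2 median, labelled Liver and Melan A, r was 0.784 for both. In RefSeq order 1 protein-coding gene lies between Crip1 and Crip2. Each was measured by 1 cDNA probe, and binding of related transcripts to one another's probe was not tested.

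**Figure D4:**
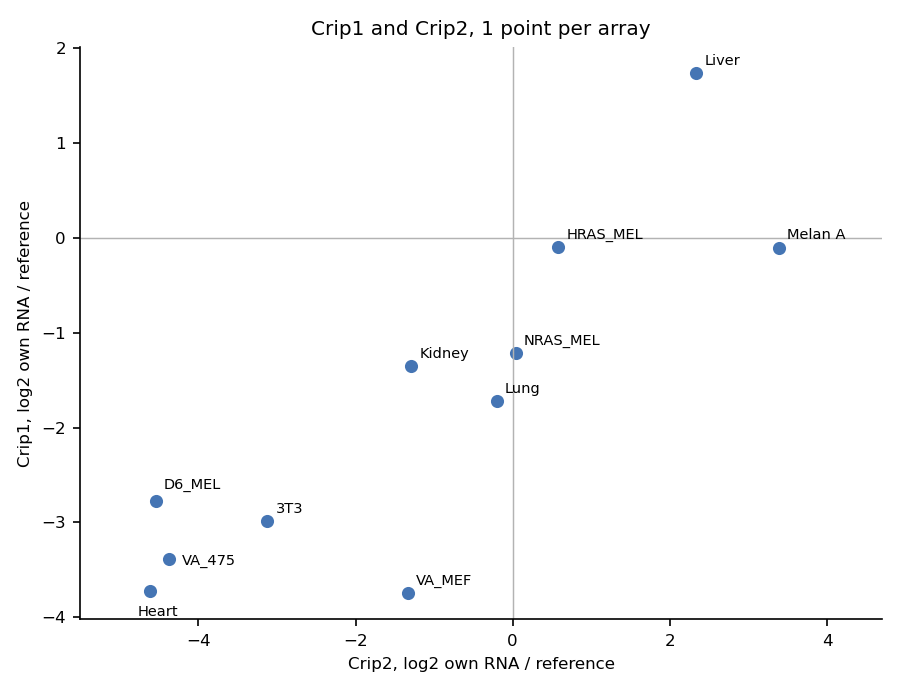
Crip1 (y axis) against Crip2 (x axis), both log2 own RNA over reference, with 1 labelled point per array. D6_MEL, Heart, VA_475 and 3T3 are low in both genes, and NRAS_MEL and HRAS_MEL lie nearer 0. The Melan A-labelled array, at 3.38 for Crip2 and -0.10 for Crip1, departs from the joint order. So does the VA_MEF-labelled array, at -1.34 for Crip2 and -3.74 for Crip1.

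Partners in actin and adhesion structures, a list of 29 measured genes of 51, were read beside the members. In NRAS_MEL minus D6_MEL, 0 were at least 2-fold higher and 7 lower, with a median of -0.46 (1 and 7 with arrays scaled to equal spread). These were 24.1% of the list, beside 6.86% of all genes. The non-muscle myosin Myh10 differed by -1.74, Id2, an inhibitor of DNA binding, by -1.68, the alpha-actinin Actn4 by -1.40 and beta-catenin (Ctnnb1) by -1.04. In HRAS_MEL minus D6_MEL, 3 were higher and 2 lower, with a median of -0.23, or 17.2% of the list beside 11.1% of all genes. Tagln2 differed by -2.24, tropomyosin 2 (Tpm2) by 1.90, Myh10 by -1.54 and calponin 2 (Cnn2) by 1.31. In Heart minus D6_MEL, 0 were higher and 4 lower (1 with quantile normalization), or 13.8% of the list beside 2.09% of all genes. Myh10 stood at -2.67 in the Heart-labelled array, -2.86 in NRAS_MEL and -2.67 in HRAS_MEL, against -1.12 in D6_MEL. Each of these comparisons shares the D6_MEL array, so they are not independent. In D6_MEL minus Melan A, 12 were higher and 4 lower, with a median of 0.91, or 55.2% of the list beside 27.4% of all genes. The muscle alpha-actinin Actn2, a binding partner of PDZ-LIM proteins at the Z-disc, differed by -6.87, smooth muscle calponin (Cnn1) by -2.58, and Cnn3 and Cnn2 by 2.49 and 2.45.

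For each member the 3 genes with the most similar values over the 11 arrays were found among 7035. Nearest to Tes were Cttn (cortactin, an actin-branching protein) with an r of 0.970, Pmm1 at 0.950 and Capg, an actin-capping protein, at 0.944. These stayed at 0.898 or above without the arrays labelled Lung and Melan A, the 2 farthest from the Tes median. Cttn stood at 1.34 in D6_MEL, 1.31 in NRAS_MEL, 0.86 in HRAS_MEL and -1.47 in the Melan A-labelled array. Capg stood at 3.26, 2.97, 2.40 and -0.92 in the same arrays.

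Nearest to Crip2 were Hspb1, a small heat shock protein, at 0.922, Paip2 at 0.906 and the transcription factor Tfeb at 0.899. Without the arrays labelled Liver and Melan A these were 0.838, 0.845 and 0.778. Hspb1 stood at -4.70 in D6_MEL, -3.19 in NRAS_MEL, -1.44 in HRAS_MEL and 0.06 in the Melan A-labelled array.

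For Fhl2 and Pdlim5, as for Crip2, r with each of the nearest genes was lower without the Melan A-labelled array. For Crip2 with Hspb1, Paip2 and Tfeb it was then 0.889, 0.866 and 0.857. Nearest to Pdlim5 were Phtf2 at 0.944, Cog5 at 0.932 and Dnah9 at 0.928, and without the Melan A-labelled array these were 0.758, 0.839 and 0.857. Over those 10 arrays none of the 3 was among the nearest, and without NRAS_MEL as well their r was 0.685, 0.854 and 0.779. Nearest to Fhl2 were BC053393 at 0.993, Ubac1 at 0.908 and Nexn, an actin-binding protein of heart muscle, at 0.906. Without the Melan A-labelled array they were 0.982, 0.674 and 0.629, and without 3T3 as well 0.981, 0.570 and 0.471. BC053393 stood at 4.78 in the Melan A-labelled array and at 1.52 in 3T3, close to Fhl2 at 5.50 and 1.48. Its probe carries the number after that of the Fhl2 probe, and r was at least 0.99 in 5 of 6020 such consecutive pairs of differently named genes, with a median of 0.08. BC053393 and Fhl2 lie on different chromosomes in RefSeq. Whether the probes of this pair measure separate transcripts was not tested.

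In the Melan A-labelled array 4 muscle genes, chosen after their values were seen, were high beside Fhl2 and Pdlim5. Some other muscle genes of the lists were highest there too, and some were not. Actn2 stood at 2.08 there and between -5.38 and -3.59 in the other 10 arrays. Fabp3, a fatty acid carrier of muscle, was at 3.13 and elsewhere between -1.95 and -0.12, Nppb, a natriuretic peptide of heart, at 4.42 and elsewhere between -0.89 and 2.18, and Nexn at 2.85 and elsewhere between -2.03 and -0.43. Actn3, the alpha-actinin of fast muscle, stood at -3.38 in the Melan A-labelled array, Tpm2 at -2.44, the myosin light chain Myl9 at -1.51 and Nrap, a LIM protein of muscle, at 0.44, below its level of 0.87 in HRAS_MEL. The Heart-labelled array held none of the first 4 genes high, with Actn2 at -5.38, Fabp3 at -1.90, Nppb at -0.01 and Nexn at -2.03. Over the 10 arrays without the Melan A-labelled one, the r of Fhl2 was -0.08 with Actn2, 0.09 with Fabp3, -0.64 with Nppb and 0.63 with Nexn. Among the members it was -0.54 between Pdlim5 and Fhl2 and -0.05 between Crip2 and Fhl2.

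**Figure D5:**
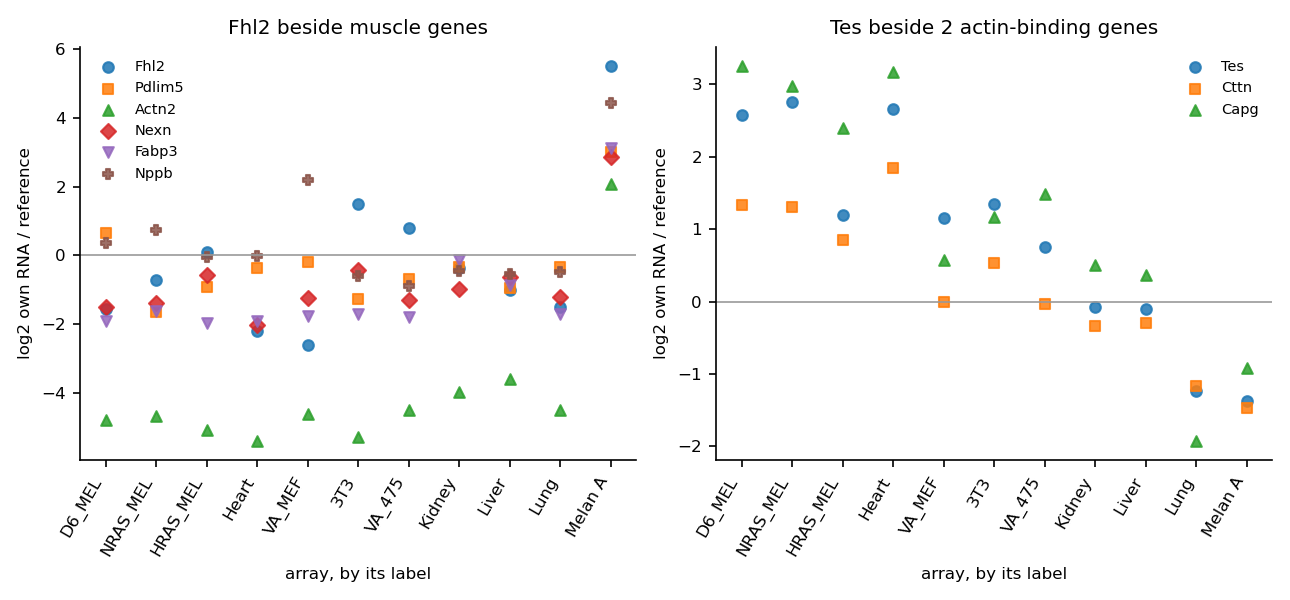
Levels (log2 own RNA over reference, y axis) on the 11 arrays (x axis, by label) of Fhl2 and Pdlim5 beside 4 muscle genes (left) and of Tes beside Cttn and Capg (right), 1 point per gene and array. The left panel shows all 6 genes highest in the Melan A-labelled array, from 2.08 for Actn2 to 5.50 for Fhl2; the right panel shows the 3 genes low in the arrays labelled Lung and Melan A.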

How the data were processed

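The data are log ratios of the 2 channels of 11 arrays, deposited by the authors and taken here as log2. How background was corrected, how arrays were normalized and which logarithm was used is not stated in the labels or headers. The deposited medians lay between -0.03 and 0.03. Signs were turned and each array was centred on its median. Of 15247 probes, 9600 had 1 gene symbol in the platform annotation, 214 had several and 5433 were not listed there; 9492 were found by gene number in RefSeq (GRCm38.p6), which changed 0 symbols. Probes of a gene were averaged, giving 7114 genes, 1810 with several probes. Single arrays were subtracted and genes at least 2-fold apart counted, with no test. The number of arrays limits the precision, and spot brightness was not analysed here.

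The members, lists and comparisons were chosen with earlier results of these data known. The named genes are the 4 members, the 3 genes most like each by Pearson r, LIM list genes at least 2-fold apart in 3 comparisons (both RAS-labelled arrays against D6_MEL, and D6_MEL against the Melan A-labelled array) and the 4 largest differences of the partner list in each. BC053393 was looked at further, and muscle genes and Crip relatives were correlated with members, after their values were seen. Promoters came from RefSeq (GRCm38.p6), where all 4 members matched. Scripts ran in Python 3.11.15 with pandas 2.3.3 and numpy 2.4.6 and were tested on simulated data. Alternatives were no centring, quantile normalization, scaling to equal spread, other ways of joining probes, a filter on genes with low mean ratios, and another comparison array.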

Additional observations from a re-analysis of the deposited data

How the results depend on the processing

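Of 248 recomputed differences of the members over 12 comparisons, 215 moved by less than the probe spread and 33 by more, 9 changed their side of 2-fold and 4 changed sign. Leaving out the centring, taking the median of the probes or taking 1 probe per gene moved none of them past the spread, the last 2 because each member has 1 probe. Quantile normalization gave D6_MEL minus Melan A (Crip2 -6.35, Pdlim5 -1.18), NRAS_MEL minus Melan A (Crip2 -2.23, Pdlim5 -3.64), HRAS_MEL minus Melan A (Crip2 -1.63, Pdlim5 -2.94), Heart minus D6_MEL (Crip2 0.33), VA_MEF minus 3T3 (Tes -0.72), VA_475 minus 3T3 (Crip2 -0.81, Fhl2 -1.37, Tes -1.28), Melan A minus Kidney (Crip2 3.62, Pdlim5 2.29, Fhl2 5.13), Melan A minus Liver (Crip2 -0.0842, Pdlim5 3.18) and Melan A minus Lung (Crip2 2.43, Pdlim5 2.22, Fhl2 6.13). Crip2 in Melan A minus Liver and in Heart minus D6_MEL changed sign here, as did Tes in Heart minus D6_MEL, to -0.0932; of the 4 sign changes only Crip2 in Melan A minus Liver started from past 2-fold. Scaling each array to equal spread gave NRAS_MEL minus D6_MEL (Crip2 5.41), HRAS_MEL minus D6_MEL (Crip2 6.0), NRAS_MEL minus Melan A (Fhl2 -5.33), HRAS_MEL minus Melan A (Fhl2 -4.52), VA_475 minus 3T3 (Crip2 -0.39), Melan A minus Kidney (Crip2 4.08, Fhl2 4.97), Melan A minus Liver (Crip2 0.15, Fhl2 5.76) and Melan A minus Lung (Fhl2 5.87). It also brought Fhl2 in NRAS_MEL minus D6_MEL to 1.12, past 2-fold, and Tes there to -0.33, with its sign changed. When the Heart-labelled array took the place of D6_MEL, NRAS_MEL gave -1.27 for Pdlim5 and 1.47 for Fhl2, and HRAS_MEL -0.55 and 2.28. The cause of these moves was not tested.

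Without the 20% of genes with the lowest mean log ratio over the arrays, 22 of the 32 LIM list genes remained, Crip2 being among those left out. This filter acts on the ratio to the reference, not on signal. Counts past 2-fold, members included, went from 5 to 3 in NRAS_MEL minus D6_MEL and from 8 to 4 in HRAS_MEL minus D6_MEL. They went from 4 to 2 in NRAS_MEL minus HRAS_MEL, from 15 to 9 in NRAS_MEL minus Melan A and from 6 to 3 in VA_475 minus 3T3. In Melan A minus Kidney they went from 12 to 6 and in Melan A minus Lung from 11 to 5. Over all genes left by the filter the counts were 333 of 5661 in NRAS_MEL minus D6_MEL and 541 of 5665 in HRAS_MEL minus D6_MEL. They were 434 of 5662 in NRAS_MEL minus HRAS_MEL, 1495 of 5658 in NRAS_MEL minus Melan A and 327 of 5663 in VA_475 minus 3T3. Melan A minus Kidney gave 861 of 5666 and Melan A minus Lung 1133 of 5665. Heart minus D6_MEL gave 83 of 5664 and VA_MEF minus 3T3 gave 623 of 5673. Between the arrays labelled Heart and D6_MEL, scaling to equal spread gave 3 genes of the LIM list and 253 of all, and quantile normalization 1 of the partner list. By Spearman rho, 2, 0, 1 and 2 of the 3 genes nearest to Crip2, Pdlim5, Fhl2 and Tes stayed nearest; without the Melan A-labelled array, an alternative chosen after seeing the data, 1, 0, 1 and 2 did. No paired analysis was possible because no label has a second array. Spot intensities were not analysed here, so how far low signal limits a ratio is unknown.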

Other observations

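Measured neighbours on the chromosome, in RefSeq order, were looked up for the 4 members after their values were seen. Cav1, the main caveolae protein, is separated from Tes by 1 protein-coding gene and did not share the levels of Tes. Cav1 stood at -4.53 in the VA_MEF-labelled array, -1.14 in D6_MEL, -0.53 in NRAS_MEL, 0.83 in HRAS_MEL and 2.08 in the Liver-labelled array, and its r with Tes over the 11 arrays was 0.01. Mdfic, on the other side of Tes, had an r of 0.51 with it and ranged from -0.49 in the Melan A-labelled array to 1.74 in the Liver-labelled array. Nudt14, before Crip2 with 5 protein-coding genes between them, had an r of 0.70 with Crip2 but stayed between -0.55 and 0.64. Tgfbrap1 and Ecrg4, either side of Fhl2, had r of -0.40 and 0.31 with it. Unc5c and Gtf2b, either side of Pdlim5 with 1 and 6 protein-coding genes between, had r of -0.01 and -0.66.

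The probes numbered next to the other members did not resemble them as BC053393 resembles Fhl2. Around Crip2 the values of r were -0.01 for Ciart and 0.49 for Tmem176b, around Pdlim5 -0.53 and -0.12 for unnamed probes, and around Tes -0.71 for Hsph1 and -0.37 for an unnamed probe. On the other side of the Fhl2 probe an unnamed probe had an r of 0.78 with it.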
